A study of Mus musculus with 89 samples.

Results

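Butyrophilin-like and lymphocyte-attracting genes of the jejunal epithelium were followed along the crypt-villus axis and across epithelial cell types and lymphocytes. The 9 genes were Btnl1, Btnl2, Btnl4 and Btnl6 of the butyrophilin-like family, the cytokine gene Il15, and the chemokine genes Ccl25, Cxcl16, Ccl20 and Cx3cl1. They were taken by symbol, and all 9 were present among the 27538 genes measured in clumps and the 23379 genes measured in single cells. ClumpSeq sequences small tissue fragments obtained by mild dissociation, so that the enterocyte RNA of each fragment tells its position on the axis. All groups were C57BL/6 male mice on regular chow, labelled 3 months of age (8 to 12 weeks in the methods), except that 3 plates of single cells from mouse 2 were labelled 4 months. Epithelium was released from the jejunum with EDTA, and the mRNA of each sorted clump or cell was counted as unique molecular identifiers (UMIs) in plates by MARS-seq, which reads 3′ ends. Clumps came from mice 1 to 5, as pairs (4n DNA content) in each mouse and larger clumps (h4n, above 4n) in mice 1, 4 and 5. They were assigned to crypt, mid-villus or tip. Single cells came from mice numbered 1 to 4, and whether a number names the same animal as in the clumps is not given in the sources used here. They were sorted under the gates CD24, Epcam, CD45Epcam, CD54Epcam, onlyEpcam, EpcamLow_Cd24high, Epcam_Cd24low or none given, and were grouped as enterocyte-like, goblet-like, tuft-like, enteroendocrine-like or lymphocyte-like.

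The epithelium of the small intestine is a single cell layer in which intraepithelial lymphocytes sit between enterocytes. Butyrophilin-like proteins are surface molecules of the immunoglobulin superfamily. In the mouse, the Btnl1 and Btnl6 proteins pair on enterocytes and act on γδ T cells that carry a Vγ7 receptor chain. Btnl4 is a close relative of Btnl6, and Btnl2 is a relative of the same gene cluster known as a T cell co-inhibitor. Interleukin 15 maintains intraepithelial lymphocytes through a receptor that includes Il2rb. Ccl25 draws lymphocytes to the small intestine through Ccr9, Cxcl16 acts through Cxcr6, Ccl20 through Ccr6, and Cx3cl1 (fractalkine) through Cx3cr1, and both Cxcl16 and Cx3cl1 are made as membrane-bound chemokines.

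The 4 butyrophilin-like genes lie in 1 cluster on chromosome 17 of GRCm38. Btnl2 spans chr17:34354822-34369495 and Btnl1 spans chr17:34377132-34386028, both on the plus strand, while Btnl4 (chr17:34466562-34477318) and Btnl6 (chr17:34507804-34517352) lie on the minus strand. Il15 (chr8:82331632-82403222, minus strand), Ccl25 (chr8:4325210-4360020, plus strand) and Cx3cl1 (chr8:94772009-94782427, plus strand) are on chromosome 8. Cxcl16 is at chr11:70453983-70459984 on the minus strand and Ccl20 at chr1:83116766-83119167 on the plus strand. Ccl25 overlaps Elavl1 and Cxcl16 overlaps Zmynd15 on the opposite strand, so their counts rest on the authors' counting of sense-strand reads. RefSeq promoters (build GRCm38.p6) were held for 7 of the 9 members, that is all but Il15 and Cxcl16. Hnf4 and Cdx factors are transcription factors of enterocytes, so the promoters were searched on both strands for an HNF4 core (CAAAGTC) and a CDX site (TTTATNG), which do not overlap each other in these windows. The 90 bases before the start are shown for Btnl1 (chr17:34377042-34377131, plus strand), Btnl2 (chr17:34354732-34354821, plus strand) and the second of 2 listed starts of Ccl25 (chr8:4349498-4349587, plus strand), the 3 windows that held a match, in capitals.

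Btnl1: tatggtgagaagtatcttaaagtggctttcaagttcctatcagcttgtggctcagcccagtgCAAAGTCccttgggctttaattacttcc

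Btnl2: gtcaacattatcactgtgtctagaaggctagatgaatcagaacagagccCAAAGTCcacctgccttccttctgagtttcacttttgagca

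Ccl25: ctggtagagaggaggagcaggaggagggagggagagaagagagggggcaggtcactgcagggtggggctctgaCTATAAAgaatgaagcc

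The HNF4 core matched at -28 in the Btnl1 promoter and at -41 in the Btnl2 promoter, counted from the start, and it was present in 4.47% of the 32544 RefSeq promoters of the same 300 bases. The CDX match of Ccl25, at -17, was on the minus strand and is written here as its reverse complement, a stretch that overlaps the letters TATAAA of a TATA box. A CDX match was present in 10.8% of all promoters. These matches describe letters in the window and no bound factor. The promoters of Btnl4 (chr17:34475938-34476027, minus strand) and Btnl6 (chr17:34517353-34517442, minus strand) held neither motif and are shown because they are nearly the same sequence.

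Btnl4: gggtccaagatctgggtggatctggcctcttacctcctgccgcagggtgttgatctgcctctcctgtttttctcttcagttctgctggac

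Btnl6: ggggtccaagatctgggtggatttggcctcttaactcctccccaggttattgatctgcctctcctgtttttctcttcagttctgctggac

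Over the whole 300-base windows, 272 of 299 aligned bases (91.0%) were identical between Btnl4 and Btnl6, against 63.3% between Btnl1 and Btnl2. The listed start of Btnl4 lies inside the annotated gene. The 3′ ends that MARS-seq counts were searched for words shared with other Btnl genes. Of the 451 words of 50 bases in the last 500 bases of the transcript, 36 (8.0%) in Btnl4 and 51 (11.3%) in Btnl6 also occurred in Btnl7-ps, and none in Btnl1 or Btnl2 was shared. The counts of Btnl4 and Btnl6 are therefore less certain than those of Btnl1 and Btnl2.

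After filters, 5883 clumps were placed, 3529 in the crypt, 1550 at the mid-villus and 804 at the tip, with a median of 4424, 1871.5 and 1354 UMIs per clump. Clumps were summed per mouse and zone, and these 15 sums held 79055 to 19001409 UMIs. The tip sum of mouse 4 came from 27 clumps, and the clumps of mouse 5 had median mitochondrial shares of 20.8% to 22.1%, against 4.36% to 14.0% in the other mice. Larger clumps were unevenly spread over zones in mice 1 and 4, so clump size and zone are mixed there. Pairs were 318 of 2098 crypt, 67 of 122 mid-villus and 6 of 27 tip clumps in mouse 4. In mouse 1 they were 183 of 498, 188 of 347 and 100 of 121. In CPM, a gene's UMIs scaled to a sum of 1000000, enterocyte markers reached 3157 to 13850 in the crypt, 38520 to 75760 at the mid-villus and 53300 to 94860 at the tip, and stem and dividing markers to 409 to 1009, 57.1 to 149 and 45.3 to 236. The lymphocyte list reached 1.10 to 219 CPM in the crypt (13 of 13 genes detected), 4.14 to 11.6 at the mid-villus (10 of 13) and 0 to 20.1 at the tip (8 of 13). Levels below are CPM. Differences are log2 values from edgeR with its standard error (SE), scaled by TMM, which multiplies each total by a factor (0.739 to 1.24 in clumps), and adjusted over all genes tested. In sums over clumps, fewer cells of a type and less RNA per cell cannot be told apart.

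From the crypt to the mid-villus, 5 of the 6 members with enough UMIs for a test rose, namely Btnl1, Btnl2, Il15, Cxcl16 and Cx3cl1, and the sixth, Ccl25, did not pass the test. Of all 7445 genes tested, 16.6% were higher at the mid-villus and 40.3% differed in either direction. The median difference was 1.78 over the 6 members and -0.04 over all genes. Btnl4, Btnl6 and Ccl20 had too few UMIs to be tested. From the mid-villus to the tip, Cxcl16 and Il15 rose further, Ccl25 fell, and Btnl1, Btnl2 and Cx3cl1 did not pass the test, where 12.3% of all genes were called, 6.02% higher and 6.33% lower (919 genes, or 2050 with the mouse as a block). Between the tip and the crypt, 5 members were higher and Ccl25 was lower, against 53.1% of all genes called (22.7% higher and 30.4% lower). The 3 comparisons share their zones and are not independent of each other.

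**Figure D1:**
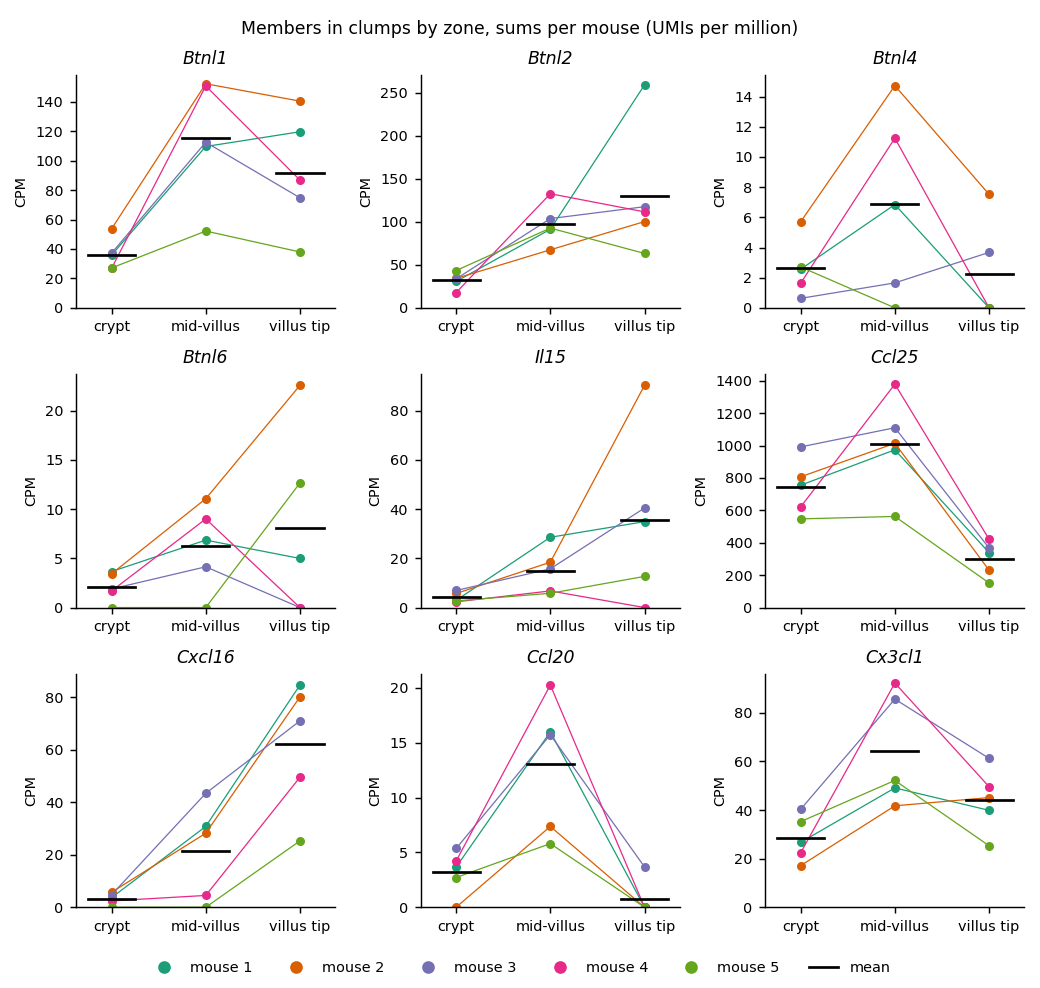
Levels of the 9 members in clumps, as CPM on the vertical axis of each panel, by zone. Each point is the sum of 1 mouse in 1 zone, lines join the sums of a mouse, and black bars are means over 5 mice. Btnl1 and Btnl2 climb from crypt to mid-villus in each mouse, Il15 and Cxcl16 reach their highest mean at the tip, and Ccl25 is lowest at the tip in each mouse.

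Btnl1, one partner of the surface pair read by Vγ7 T cells, stood in mice 1 to 5 at 35.8, 53.7, 37.2, 26.9 and 27.1 CPM in the crypt. It reached 109.6, 152, 113, 151 and 52.2 at the mid-villus. It then lay at 119.6, 140.4, 74.7, 86.8 and 37.9 at the tip. Every mouse was higher at the mid-villus than in its crypt, and the groups overlapped only through mouse 5, whose mid-villus level was below the crypt level of mouse 2. The difference was 1.80 (SE 0.305, 3.49-fold, adjusted p = 7.71e-05) between mid-villus and crypt and 1.77 (SE 0.321, adjusted p = 0.000108) between tip and crypt. Between tip and mid-villus it was -0.03 (95% interval -0.64 to 0.59, adjusted p = 0.975), and the sign of that value turned positive in several alternative settings, up to 0.18 without mouse 4.

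Btnl2 stood at 30.7, 34.2, 33.7, 17.7 and 43.4 in the crypt and at 91.3, 67.5, 104, 133 and 92.8 at the mid-villus, with no overlap. At the tip it lay at 259, 100.3, 118, 112 and 63.2, with mouse 1 far above the other mice. The gene rose by 1.75 (SE 0.334, 3.37-fold, adjusted p = 0.000258) from crypt to mid-villus and stood 2.40 (SE 0.346, adjusted p = 8.41e-06) above the crypt at the tip. The further difference of 0.65 (SE 0.332) between tip and mid-villus did not pass the test (adjusted p = 0.211), but it did with the mouse as a block (0.69, adjusted p = 0.0356).

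Btnl4 and Btnl6 were rare. Btnl4 summed to 46 UMIs in the crypt, 27 at the mid-villus and 6 at the tip, with ranges over mice of 0.630 to 5.71, 0 to 14.7 and 0 to 7.52 CPM. Btnl6, the partner of Btnl1, summed to 51, 29 and 11 UMIs, with ranges of 0 to 3.66, 0 to 11.1 and 0 to 22.6. The zones overlapped for both genes. Fitted with no filter on low counts, the mid-villus differences from the crypt were 1.82 (adjusted p = 0.0933) for Btnl4 and 1.67 (adjusted p = 0.129) for Btnl6.

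Il15 had 80 UMIs in the crypt, 82 at the mid-villus and 77 at the tip, out of totals that fall from 26156437 to 4725068 and 1575447. Its level in mice 1 to 5 was 2.93, 5.71, 6.93, 2.32 and 2.71 in the crypt and 28.5, 18.4, 15.7, 6.75 and 5.80 at the mid-villus. At the tip it was 34.9, 90.2, 40.4, 0 and 12.6. Each mouse was higher at the mid-villus than in its crypt, with overlap between the groups. In mouse 5 this rests on 1 UMI in each of the 2 zones, and in mouse 4 on 3 UMIs at the mid-villus. The tip of mouse 4, the smallest set of clumps, held no Il15 UMI. Il15 rose by 2.18 (SE 0.541, adjusted p = 0.00271) from crypt to mid-villus and by a further 1.74 (SE 0.518, adjusted p = 0.0309) to the tip, and the tip was 3.92 (SE 0.553, adjusted p = 6.64e-06) above the crypt. The step from mid-villus to tip lost its call without TMM factors (adjusted p = 0.0674), with no filter on low counts (0.0985) and without mouse 5 (0.0547), 3 of the 12 alternatives in which Il15 could be tested. It was too rare for a test in pairs alone and without mouse 1, 2 or 3.

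Ccl25, the ligand of the gut-homing receptor Ccr9, had an arched course. It stood at 755, 807, 992, 621 and 547 CPM in the crypt of mice 1 to 5. It stood at 974, 1014, 1110.0, 1379 and 562 at the mid-villus, higher in all 5 mice but with overlapping groups. At the tip it was 339, 231, 368, 421 and 152, below every crypt and mid-villus value. The difference between mid-villus and crypt was 0.53 (SE 0.269, adjusted p = 0.128), which passed with the mouse as a block (0.52, adjusted p = 0.0281) and without mouse 5 (0.73, adjusted p = 0.0310). Ccl25 fell by 1.55 on the log2 scale from mid-villus to tip (SE 0.279, to 0.343 of the mid-villus level, adjusted p = 0.00103) and was lower there than in the crypt as well (-1.02, SE 0.276, adjusted p = 0.00388). In pairs alone the fall from mid-villus to tip was of like size and missed the threshold (-1.52, adjusted p = 0.0526).

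Cxcl16, the membrane-bound ligand of Cxcr6, stood at 3.66, 5.71, 4.72, 2.42 and 0 in the crypt and at 30.8, 28.2, 43.4, 4.50 and 0 at the mid-villus. At the tip it was 84.7, 80.2, 71.1, 49.6 and 25.3. Each mouse had its highest level at the tip, and no crypt value reached a tip value. Cxcl16 rose by 2.98 (SE 0.493, 7.87-fold, adjusted p = 6.36e-05) from crypt to mid-villus and by 1.68 (SE 0.451, 3.20-fold, adjusted p = 0.0186) from mid-villus to tip, and the tip was 4.65 (SE 0.515, adjusted p = 4.92e-07) above the crypt. The step to the tip lost its call without mouse 1 (adjusted p = 0.0816), without mouse 2 (0.102), without TMM factors (0.0564) and with no filter on low counts (0.0653). Goblet markers moved with it, at 3094 to 6596 CPM in the crypt, 3310 to 15610 at the mid-villus and 6755 to 27850 at the tip (10 of 10 genes detected in each zone), and their part in the result was not tested.

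Ccl20, which draws Ccr6-positive cells, summed to 108 UMIs in the crypt, 68 at the mid-villus and 3 at the tip. Its level was 3.66, 0, 5.35, 4.21 and 2.71 in the crypt, 16, 7.36, 15.7, 20.2 and 5.80 at the mid-villus, and 0, 0, 3.68, 0 and 0 at the tip. All mid-villus values lay above all crypt and tip values. However, the mid-villus value of mouse 5 was 1 UMI, next to 5.35 CPM in the crypt of mouse 3. The tip values of 0 came from sums of 79055 to 398900 UMIs. With no filter on low counts the mid-villus was 2.00 (SE 0.513, adjusted p = 0.00610) above the crypt, and the difference between tip and mid-villus was -2.82 (adjusted p = 0.0635).

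Cx3cl1 stood at 26.7, 17.1, 40.3, 22.4 and 35.2 in the crypt, at 49.1, 41.7, 85.6, 92.2 and 52.2 at the mid-villus and at 39.9, 45.1, 61.3, 49.6 and 25.3 at the tip. No mid-villus value fell below a crypt value, while tip values overlapped with both. Cx3cl1 rose by 1.29 (SE 0.302, 2.44-fold, adjusted p = 0.00174) from crypt to mid-villus. The tip was 1.09 (SE 0.332, adjusted p = 0.00892) above the crypt, a call that was lost in 5 of 16 alternatives, among them without mouse 3 (adjusted p = 0.0758), and tip and mid-villus differed by -0.19 (95% interval -0.84 to 0.45, adjusted p = 0.763). In pairs alone the differences from the crypt were 0.57 (adjusted p = 0.254) at the mid-villus and 0.46 (adjusted p = 0.341) at the tip.

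Another fit left out the clumps in which lymphocyte genes were seen. Without the clumps that held any UMI of the lymphocyte list, the mid-villus differences from the crypt were 1.75 for Btnl1, 1.68 for Btnl2, 2.05 for Il15, 3.01 for Cxcl16 and 1.18 for Cx3cl1, all past the test. Clumps with any such UMI made up 0% to 13.9% of a mouse and zone, and the highest share was in the crypt of mouse 2. With so few clumps left out, this setting could move the values little. A clump without such a UMI may still hold lymphocyte RNA, whose part in the differences was not tested.

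Clumps were also placed on a finer scale, from the share of tip landmarks among their tip and crypt landmark UMIs. Clumps with at least 5 such UMIs were split into 6 bins of 957 to 984 clumps, of which bin 6 held sums of 4 mice. These bins describe the same clumps and were not tested. Btnl1 climbed from a mean of 5.79 ± 5.87 CPM (SD, n = 5) in bin 1 to 87.0 ± 40.8 in bin 4 and 108 ± 38.8 (n = 4) in bin 6. Btnl2 went from 8.07 ± 6.24 to 81.2 ± 8.68 and 134 ± 51.9 in the same bins. Ccl25 was at 289 ± 70.5 in bin 1, 1100 ± 230.1 in bin 4 and 380 ± 162 in bin 6. Il15 stayed at or under a mean of 12.7 up to bin 5 and stood at 37.9 ± 22.5 in bin 6, and Cxcl16 went from 8.96 ± 5.22 in bin 4 to 29.2 ± 23.8 in bin 5 and 53.8 ± 23.7 in bin 6. Cx3cl1 had means of 48.8 to 56.5 from bin 3 on.

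**Figure D2:**
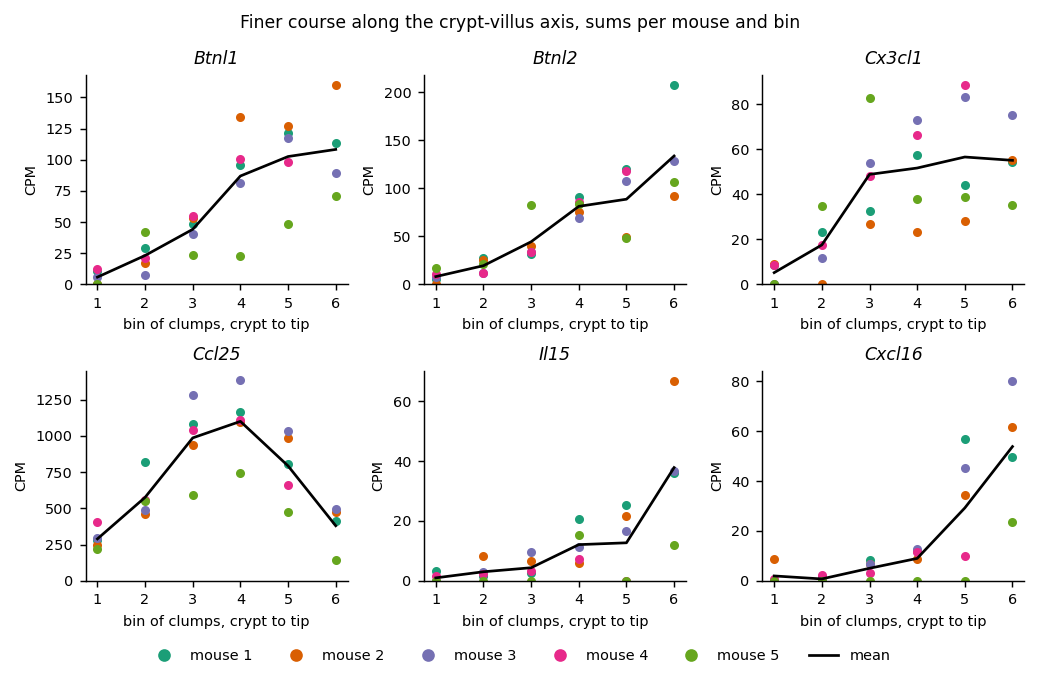
Levels of the 6 tested members along 6 bins of clumps from crypt (1) to tip (6), as CPM. Points are sums of 1 mouse in 1 bin and the line is the mean. Ccl25 peaks in bin 4 with a mean of 1100, whereas the means of Il15 and Cxcl16 are highest in bin 6.

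Genes with the most similar course were taken by Pearson's r of log2(CPM + 5) over the 15 sums of mouse and zone, among 7444 genes. The sums share mice and depth, so r is a description. Btnl1 was most like B4galt6, Cyb5r3 and Slc35c2 (r of 0.945, 0.945 and 0.944), and Btnl2 most like Slc27a4, a fatty acid transporter, Amn and Cdhr2 (0.946, 0.928 and 0.922). Ccl25 was most like Gstm1, Atpif1 and Gm6977 (0.964, 0.952 and 0.948). Cxcl16 was nearest to Aqp7, Neat1 and Zcchc6 (0.95, 0.95 and 0.941) and Il15 to Dst, Rasa2 and Cep350 (0.953, 0.901 and 0.886). Cx3cl1 was nearest to Tapbp, a peptide-loading factor of MHC class I, Tm6sf2 and Slc39a4 (0.867, 0.859 and 0.856). None of these genes was a zone landmark. Among the members, r was 0.77 between Btnl1 and Btnl2, 0.72 between Il15 and Cxcl16 and -0.42 between Ccl25 and Cxcl16.

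Single enterocyte-like cells gave the same comparison in separate libraries. Cells of mice 1 to 4 were placed at the mid-villus or the tip by the same landmarks, and the sums held 369091 to 1934469 UMIs. Of the 6 members tested, Ccl25 was lower at the tip and the other 5 did not pass the test, where 30.6% of all 3773 genes were called (15.7% lower). The median difference was 0.10 over the members and 0.03 over all genes. Ccl25 stood at 252, 447, 453 and 412 CPM at the mid-villus and at 67.2, 93.8, 118.5 and 107 at the tip, with no overlap. It fell by 1.58 on the log2 scale (SE 0.233, to 0.335 of the mid-villus level, adjusted p = 0.000697).

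Il15 in single enterocytes was 5.42, 29.0, 8.08 and 16.3 at the mid-villus and 8.79, 33.1, 20.4 and 33.0 at the tip, higher at the tip in each mouse and overlapping between groups. The difference of 0.99 (SE 0.429) had an adjusted p of 0.0962, which passed with the mouse as a block (1.17, adjusted p = 0.00271) and without mouse 1 (1.23, adjusted p = 0.0295). Cxcl16 was 32.5, 7.56, 11.7 and 12.6 at the mid-villus and 18.6, 16.6, 10.2 and 40.1 at the tip. Its level was higher at the tip in 2 mice and lower in the other 2. The fitted difference was 1.08 (SE 0.482, adjusted p = 0.104), or 0.94 with the mouse as a block (adjusted p = 0.0291). It was called with no filter on low counts (adjusted p = 0.0387) and stood at 0.58 (adjusted p = 0.397) without TMM factors.

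Btnl1 was 89.4, 116, 93.4 and 133 at the mid-villus and 62.0, 38.6, 71.5 and 82.6 at the tip, so every tip level lay below every mid-villus level, yet the fitted difference was -0.26 (SE 0.249, adjusted p = 0.445). TMM factors were 0.916 to 1.5 at the mid-villus and 0.644 to 1.07 at the tip. Without them the median of all genes moved by -0.50, and Btnl1 differed by -0.78 (adjusted p = 0.0626). Btnl2 was 63.0 to 103 at the mid-villus and 55.2 to 78.1 at the tip and differed by 0.36 (adjusted p = 0.395), or by -0.14 without TMM factors. Cx3cl1 differed by -0.17 (95% interval -0.80 to 0.45, adjusted p = 0.712). Btnl4 (18 and 20 UMIs), Btnl6 (36 and 47) and Ccl20 (8 and 3) were too rare for a test.

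**Figure D3:**
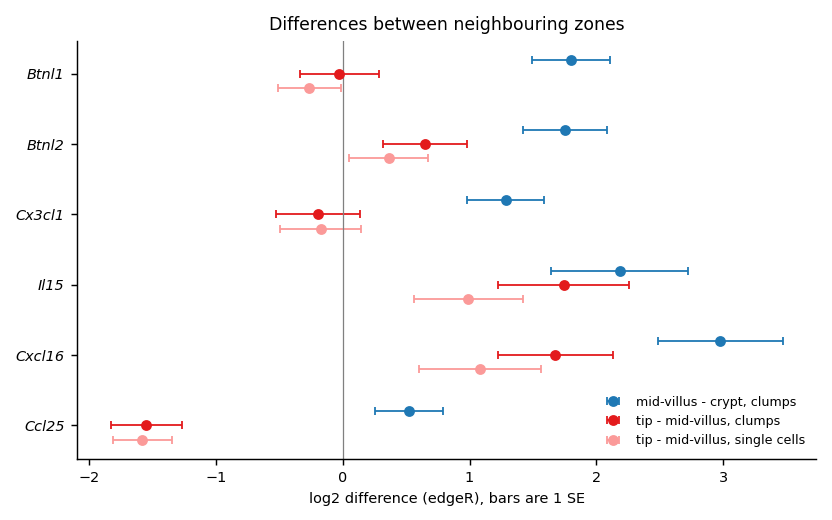
Fitted log2 differences of the 6 tested members between neighbouring zones, from edgeR, with bars of 1 SE. Blue is mid-villus against crypt and red is tip against mid-villus in clumps of 5 mice, and pink is tip against mid-villus in single enterocyte-like cells of 4 mice. Ccl25 lies near -1.5 at the tip in both kinds of library, at -1.55 and -1.58, and Btnl1 and Cx3cl1 lie near 0 there, at -0.03 and -0.19 in clumps.

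Cell types were called from clusters built without the members. The enterocyte-like cluster (2542 cells) was led by Apoa4 and Apoa1, the goblet-like (213) by Zg16 and Fcgbp, the tuft-like (186) by Sh2d6 with Dclk1, the enteroendocrine-like (240) by Sst and Cck, and the lymphocyte-like (1598) by Gzma, Cd3g and Trdc. A cluster of 420 cells led by hemoglobin and immunoglobulin genes stayed unnamed. The types differed in depth and gate. Enterocyte-like cells had a median of 2831.5 UMIs and 32.6% mitochondrial UMIs, and lymphocyte-like cells 838.5 UMIs and 9.73%. Lymphocyte-like cells came from mice 2 to 4, 635 of them from CD24 plates of mouse 2 677 and 244 from onlyEpcam plates of mice 3 and 4, and 216 of the enteroendocrine-like cells came from mouse 2. No doublet caller was run. Lymphocyte markers summed to 6.92 to 450 CPM in enterocyte-like cells and to 30520 to 41010 in lymphocyte-like cells, and enterocyte markers to 18560 to 29880 and to 1463 to 2313, so some RNA of each type was counted in the other. No background of empty wells was subtracted from these levels. TMM factors were 0.265 to 0.631 in enterocyte-like sums and 0.659 to 2.03 in the others. Without them the median of all genes moved by 1.43 in lymphocyte-like, 0.71 in goblet-like, 1.20 in tuft-like and 1.26 in enteroendocrine-like cells, so a fitted difference is larger in size than the ratio of levels for a gene lower than in enterocytes.

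**Figure D4:**
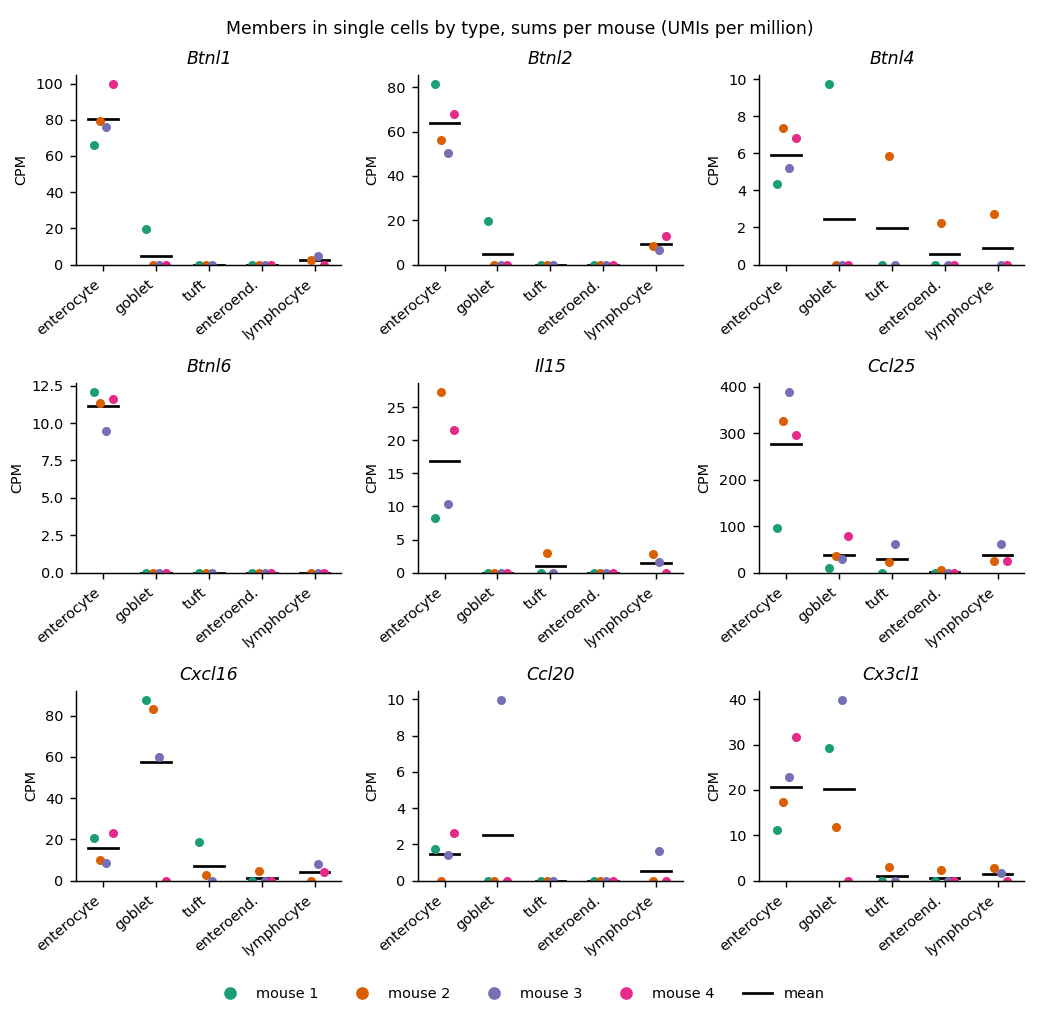
Levels of the 9 members in single cells, as CPM, by cell type. Each point is the sum of 1 mouse over 1 type (3 mice for tuft-like and lymphocyte-like cells, 4 for the others), and black bars are means. Btnl1, Btnl2 and Ccl25 are highest in enterocyte-like cells, and Cxcl16 has its highest mean in goblet-like cells.

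Members with enough UMIs for a test were highest in enterocyte-like cells, apart from Cxcl16. In lymphocyte-like cells all 4 tested members (Btnl1, Btnl2, Ccl25 and Cxcl16) were lower, where 58.5% of 4509 genes were called, 30.1% lower and 28.4% higher. In goblet-like cells 3 of 4 were lower (22.0% of all genes called, 15.0% lower and 7.07% higher), as in tuft-like cells (25.3%, 15.0% lower), and in enteroendocrine-like cells 4 of 4 (31.2%, 19.3% lower). Btnl1 and Btnl2 had 0 to 13 UMIs in each type other than enterocyte-like cells and passed the filter on low counts through the enterocyte-like sums, so these counts are a description of the members that passed and support nothing. All 4 comparisons share the enterocyte-like sums.

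Btnl1 in enterocyte-like cells was 66.1, 79.4, 75.8 and 100 CPM in mice 1 to 4 (80.4 ± 14.3, SD, n = 4). Lymphocyte-like cells held 5 Btnl1 UMIs in all, at 2.75, 4.89 and 0 in mice 2 to 4, and goblet-like cells held 2 UMIs, both in mouse 1. The difference was -5.93 (SE 0.691, adjusted p = 3.52e-08) in lymphocyte-like and -4.94 (SE 0.795, adjusted p = 2.12e-05) in goblet-like cells. Tuft-like and enteroendocrine-like cells had no Btnl1 UMI. Taking 3 UMIs over the group as the limit, the pooled level was at least 10.9-fold lower in tuft-like than in enterocyte-like cells. In enteroendocrine-like cells it was at least 13.1-fold lower. The fitted differences for these 2 types are set by the 0 counts and are not given.

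Btnl2 was likewise lower in each of the other types. It was 81.7, 56.1, 50.2 and 67.9 in enterocyte-like cells and 8.24, 6.53 and 12.9 in lymphocyte-like cells (13 UMIs), a difference of -4.41 (SE 0.639, adjusted p = 1.14e-06). Goblet-like cells held 2 UMIs, again both in mouse 1 (-4.75, SE 0.847, adjusted p = 8.18e-05). With 0 UMIs and the same limit, the pooled Btnl2 level was at least 8.90-fold lower in tuft-like and at least 10.7-fold lower in enteroendocrine-like cells.

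Btnl6 and Btnl4 were measured in enterocyte-like cells of each mouse. Btnl6 was 12.1, 11.3, 9.48 and 11.6 (87 UMIs), and no UMI was counted in goblet-like, enteroendocrine-like or lymphocyte-like sums, which puts the last at least 5.84-fold below enterocyte-like cells. Btnl4 was 4.32, 7.34, 5.21 and 6.85 (45 UMIs), with 2 UMIs in lymphocyte-like, 2 in tuft-like, 1 in goblet-like and 1 in enteroendocrine-like sums. With no filter on low counts Btnl4 was -3.37 (SE 0.790, adjusted p = 0.000162) in lymphocyte-like against enterocyte-like cells. 

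Il15 was 8.21, 27.4, 10.4 and 21.6 in enterocyte-like cells (123 UMIs), while lymphocyte-like cells held 3 UMIs and goblet-like and enteroendocrine-like cells none. It was too rare for the main test. With no filter the difference was -4.33 (SE 0.691, adjusted p = 7.20e-09) in lymphocyte-like cells, and against 0 UMIs the bound was at least 2.60-fold lower in goblet-like and at least 2.58-fold lower in enteroendocrine-like cells.

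Ccl25 was 96.4, 326, 390 and 295 in enterocyte-like cells, with mouse 1 low. In that mouse 569 enterocyte-like cells lay at the tip and 119 at the mid-villus, and Ccl25 was low at the tip, whose part in the difference between mice was not tested. Lymphocyte-like cells stood at 24.7, 62.0 and 25.8, goblet-like cells at 9.76, 35.6, 29.9 and 78.7, and enteroendocrine-like cells held 2 UMIs. The differences from enterocyte-like cells were -4.10 (SE 0.575, adjusted p = 3.12e-07) in lymphocyte-like, -3.79 (SE 0.564, adjusted p = 3.92e-06) in goblet-like, -4.75 (SE 0.709, adjusted p = 2.50e-06) in tuft-like and -7.09 (SE 0.864, adjusted p = 8.38e-08) in enteroendocrine-like cells. The last value rests on 2 UMIs, both in mouse 2, and ranged from -10.4 to -5.99 over alternatives.

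Cxcl16 departed from this order. Goblet-like cells stood at 87.8, 83.2, 59.9 and 0 CPM (35 UMIs, the 0 from 15 cells of mouse 4) and enterocyte-like cells at 20.7, 10.0, 8.53 and 23.2 (125 UMIs), so goblet-like cells were higher in 3 of 4 mice. The difference of 1.29 (SE 0.551, 95% interval 0.21 to 2.37) had an adjusted p of 0.0971. It passed with the mouse as a block (1.51, adjusted p = 0.00191), without TMM factors (2.10, adjusted p = 0.00610) and without mouse 1 (1.67, adjusted p = 0.0131). Cxcl16 was lower in lymphocyte-like cells (-3.40, SE 0.738, adjusted p = 0.000223). That value rests on 6 UMIs, 5 of them in mouse 3, and ranged from -5.99 to -1.84 over alternatives. Cxcl16 was also lower in enteroendocrine-like cells (-3.19, SE 1.09, adjusted p = 0.0236, lost in 3 of 13 alternatives), on 2 UMIs, both in mouse 2. In tuft-like cells it held 2 UMIs and differed by -2.82 (adjusted p = 0.0569). That value passed in 5 of 13 alternatives, among them the mouse as a block (-2.62, adjusted p = 0.0135), without mouse 3 (0.0339) and without mouse 4 (0.0332).

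Cx3cl1 and Ccl20 were too rare in the other types for the main test. Cx3cl1 was 11.2, 17.4, 22.8 and 31.6 in enterocyte-like and 29.3, 11.9, 39.9 and 0 in goblet-like cells, overlapping groups with means of 20.7 and 20.3. With no filter it was lower in lymphocyte-like (-4.65, SE 0.693, adjusted p = 5.08e-10), tuft-like (-4.16, adjusted p = 0.00120) and enteroendocrine-like cells (-4.46, adjusted p = 0.000209) and did not pass in goblet-like cells (-0.47, adjusted p = 0.875). Ccl20 had 12 UMIs in enterocyte-like cells, 2 in goblet-like and 1 in lymphocyte-like cells.

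Shares of cells with a UMI were compared after thinning each cell to 500 UMIs. A Ccl25 UMI was found in 11.5% (exact 95% interval 10.3% to 12.9%) of 2495 enterocyte-like cells and in 1.95% (1.27% to 2.87%) of 1280 lymphocyte-like cells, against 37.1% and 3.32% unthinned. A Btnl1 UMI was found in 3.45% (2.77% to 4.24%) and 0.0781% (0.00198% to 0.434%), and a Btnl2 UMI in 2.53% and 0.234%. In the other direction, Itgae, an integrin of lymphocytes, gave a UMI in 27.5% of lymphocyte-like and 0.200% of enterocyte-like cells. By marker sums, 24 cells of the enterocyte-like cluster were lymphocyte-like and 18 cells of the lymphocyte-like cluster were enterocyte-like, and whether free RNA, doublets or misplaced cells gave these UMIs was not tested. The thinning left out 47 enterocyte-like and 318 lymphocyte-like cells. A Cxcl16 UMI was found in 3.87% (1.68% to 7.47%) of 207 goblet-like and 0.802% (0.490% to 1.24%) of enterocyte-like cells. Cells of 1 mouse are not replicates, and the intervals cover counting error only.

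Several receptors of these ligands were higher in lymphocyte-like cells. Of 14 listed receptors and partners, 12 had a UMI in single cells and 7 could be tested, of which 5 were higher in lymphocyte-like than in enterocyte-like cells (28.4% of all genes were higher and 58.5% called). These 5 had 1 to 20 UMIs in all enterocyte-like cells and passed the filter on low counts through the lymphocyte-like sums, so their number is a description only. Cdh1 was lower, as the ligands were, and Adam10 was not called. In goblet-like and tuft-like cells none of the 7 was called, against 22.0% and 25.3% of all genes. The 5 named as higher in lymphocyte-like cells had few UMIs in these 2 types, so this number is a description too. In enteroendocrine-like cells 1 was called, against 31.2% of all genes, namely Itgb7 (2.63, SE 0.702, adjusted p = 0.00433, or 0.303 without mouse 2). Cxcr6, the receptor of Cxcl16, stood at 115, 88.1 and 146 CPM in lymphocyte-like cells of mice 2 to 4 and at 1 UMI in all enterocyte-like cells (7.31, SE 0.608, adjusted p = 3.67e-10). Il2rb, a chain of the interleukin 15 receptor, stood at 222, 143.5 and 210.3 (7.12, SE 0.551, adjusted p = 2.30e-10). Itgae, which binds the Cdh1 protein of epithelial cells, stood at 702, 623 and 717 (6.69, SE 0.635, adjusted p = 4.26e-10), and its partner chain Itgb7 differed by 5.00 (adjusted p = 1.58e-09). Ccr9, the receptor of Ccl25, was the fifth, at 152, 188 and 133 in lymphocyte-like and 0 to 4.74 in enterocyte-like cells. Cx3cr1 (25 UMIs in lymphocyte-like cells), Il15ra (19) and Ccr6 (2) were too rare to test, and the Vγ7 gene Tcrg-V7 gave 14 UMIs in lymphocyte-like and 1 in enterocyte-like cells.

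**Figure D5:**
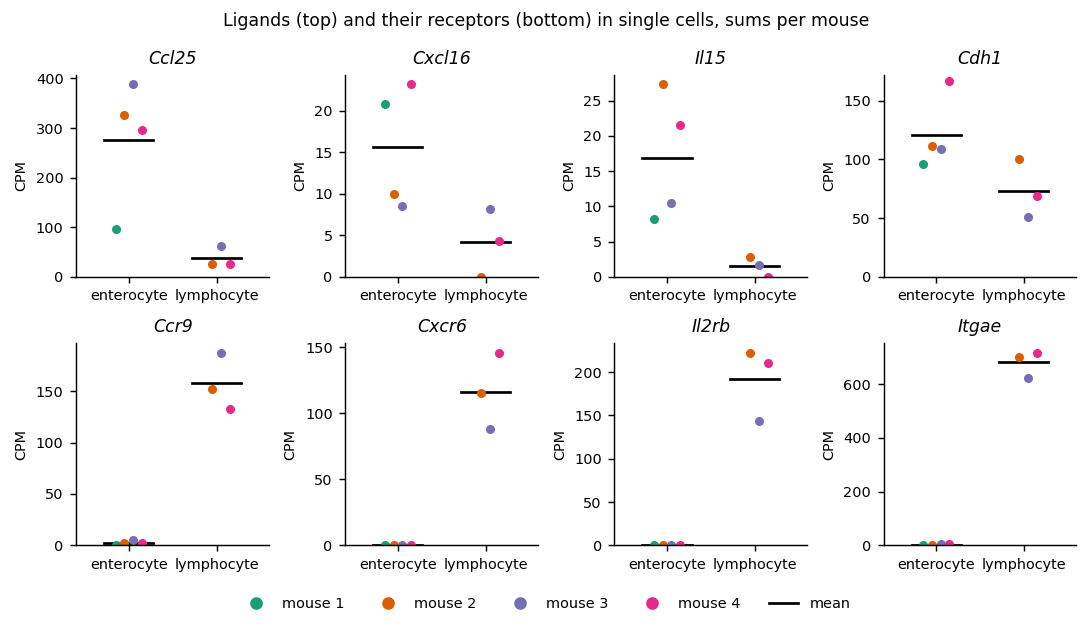
Ligands (top) and their receptors or partners (bottom) in enterocyte-like cells of 4 mice and lymphocyte-like cells of 3 mice, as CPM. Points are sums of 1 mouse and bars are means. Ccr9, Cxcr6, Il2rb and Itgae are near 0 in enterocyte-like cells, with means of 2.51, 0.119, 0.404 and 2.65, and lie at means of 158, 116, 192 and 681 in lymphocyte-like cells.

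Along the axis, 3 of the 14 partners could be tested in clumps. Cdh1, which encodes E-cadherin, was higher at the tip than at the mid-villus (1.21, SE 0.284, adjusted p = 0.00862) and than in the crypt (0.93, adjusted p = 0.00853), and the other 2, Cx3cr1 and Adam10, a protease that sheds membrane-bound chemokines, passed in no zone comparison. Cdh1 was also higher at the tip in single enterocytes (0.97, SE 0.196, adjusted p = 0.00380). Each of these 3 Cdh1 calls was lost without TMM factors, at adjusted p of 0.0535, 0.122 and 0.241, the one between tip and crypt without mouse 3 (0.0782) and the single-cell one without mouse 2 (0.0510).

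Of 17 other epithelial cytokines and chemokines, 6 could be tested in clumps. Between mid-villus and crypt, Mif (-3.22, adjusted p = 8.15e-06) and Ccl28 (-1.55, adjusted p = 0.00276) were lower and Il33 (1.86, adjusted p = 0.0134) and Tnfsf13b (1.29, adjusted p = 0.0245) were higher. The Il33 call was lost without mouse 1 (adjusted p = 0.0764) and that of Tnfsf13b with DESeq2 size factors (0.0698). Between tip and mid-villus, Il18 was lower (-2.20, adjusted p = 0.00714, or 0.0525 without mouse 2) and Tnfsf13b, which encodes the B cell factor BAFF, was higher (1.75, adjusted p = 0.0185, lost without TMM factors at 0.0571). Il18 was lower at the tip in single enterocytes as well (-2.28, adjusted p = 0.00554), so it fell there as Ccl25 did. The medians over the 6 genes were 0 between mid-villus and crypt and -1.23 between tip and mid-villus, against 1.78 and 0.31 over the members. Between tip and crypt, Mif (-4.16), Ccl28 (-3.08) and Il18 (-2.38) were lower and Tnfsf13b (3.04) was higher. In lymphocyte-like cells 2 of 2 tested genes were higher, against 28.4% of all genes (1281 genes, or 2473 without TMM factors), namely Tnfsf10 (2.25, adjusted p = 3.71e-05) and Mif (1.83, adjusted p = 0.00345), and in the other 3 types neither gene was called.

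Transcription factors of enterocytes and Irf1, an interferon regulatory factor, were tested in the same way. Between mid-villus and crypt, Hnf4g was higher (1.19, adjusted p = 0.0439) and Cdx1 lower (-1.14, adjusted p = 0.0152), and between tip and mid-villus neither was called. Between tip and crypt, Irf1 (1.05, adjusted p = 0.00180) and Hnf4a (0.74, adjusted p = 0.0196) were higher and Cdx1 (-1.32, adjusted p = 0.0100) lower. The calls of Hnf4g and Hnf4a were lost with DESeq2 size factors, at adjusted p of 0.0972 and 0.0991, and that of Hnf4g without mouse 1, 3 or 4 as well (0.147, 0.150 and 0.0731). Cdx1 lost its call without mouse 2 at the mid-villus (0.0518) and without mouse 5 at the tip (0.0575), and Hnf4a lost its call without mouse 3 (0.143). In lymphocyte-like cells Hnf4g (-5.03), Hnf4a (-4.88) and Cdx1 (-3.45) were lower, and Hnf4g was lower in goblet-like (-3.17), tuft-like (-2.96) and enteroendocrine-like cells (-2.57), with the last 2 calls lost without TMM factors (adjusted p = 0.0631 and 0.152). Cdx1 was higher in goblet-like (1.75, adjusted p = 0.0162) and tuft-like cells (2.54, adjusted p = 0.000462), where Hnf4a was not called. The goblet-like call was lost without mouse 2 or 4 (0.0738 and 0.0803) and the tuft-like one without mouse 2 (0.0568). Irf1 (-2.30, adjusted p = 0.0164) and Hnf4a (-1.60, adjusted p = 0.0174) were lower in enteroendocrine-like cells, calls lost without TMM factors (0.353 and 0.896) and without mouse 2 (0.0515 and 0.0566), and that of Hnf4a without mouse 1 or 3 as well (0.0501 and 0.0509). In single enterocytes Hnf4a was higher at the tip (0.89, adjusted p = 0.0108), which was lost without TMM factors (0.251) and without mouse 2 or 4 (0.0880 and 0.0674). Of 8 other butyrophilin family genes, 6 had a UMI in clumps and none was tested there, and in single enterocytes Btnl5-ps alone was tested and not called (0.55).

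Members were also to be compared between mid-villus clumps with and without lymphocyte RNA. Of 1550 mid-villus clumps, 25 held at least 1 UMI of the lymphocyte list and 1 held at least 3, so the planned limit of 3 UMIs could not be fitted. With a limit of 1 UMI, sums of mice 2 and 3 (9 and 10 clumps) could be used. In edgeR, 0 of 5350 genes were called, and 235 had an unadjusted p under 0.05. Btnl1 differed by -0.83 (SE 0.454), Cxcl16 by 1.29 (SE 0.870) and Ccl25 by -0.07 (SE 0.311), each with an adjusted p of 0.9999.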

How the data were processed

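The authors deposited UMI counts per gene and well, 1 table of clumps (45 plates, 17162 wells) and 1 of single cells (44 plates, 16850 wells), not normalized. Per the methods and labels, libraries were MARS-seq, demultiplexed with bcl2fastq 2.15.0.4, aligned to GRCm38 and counted with zUMIs. In the study, the mean of the empty wells of a plate was subtracted from its other wells. That step was not repeated here, because the empty wells could not be told from the tables, so levels of a few UMIs include this background. The same 384 well barcodes occur on every plate.

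A clump needed over 500 UMIs, 200 genes or more and a mitochondrial share of 30% or less (6004 of 15626 wells of mice 1 to 5). The 2% with the lowest landmark share were dropped, and a clump's zone was the landmark list with the best correlation. A cell needed between 200 and 7000 UMIs, between 150 and 1500 genes and a mitochondrial share of 40% or less, and the cells kept were clustered in scanpy 1.11.5 and igraph 0.11.9 (2000 variable genes, 25 components, 20 neighbors, resolution 0.1). Type names rest on marker lists, need at least 3 markers among 50 leading genes, and may differ from the study's.

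UMIs were summed per mouse and group of at least 5 wells and tested with the quasi-likelihood test of edgeR 4.0.16 in R 4.3.3 (TMM, filterByExpr, Benjamini-Hochberg adjustment over all genes, threshold 0.05, two-sided), with 1 fit for all zones or types and no term for the mouse. The SE is the difference over the square root of F. The fit was also run on simulated counts, and no value given here rests on that run. The mouse number is the replicate, and within a table each number was taken as 1 animal. After group means were removed, sums of 1 mouse correlated at 0.189 to 0.594 between zones, 0.248 to 0.590 between single enterocyte zones and 0.007 to 0.555 between types. Whether the plates of mouse 2 labelled 4 months come from the same animal is not given in the sources used here. Alternatives used DESeq2 1.42.0 or its size factors, no TMM factors, no filter, a mouse block, each mouse left out, and other limits and rules. The members and gene lists were chosen with earlier results of these data known. Named genes are the 9 members, up to 4 called genes of each list per comparison with the lowest adjusted p, and the 3 genes nearest to each tested member. Ccr9 was added after its values were seen, as were list genes that could not be tested. Results of 1 gene of the transcription factor list are not reported here. Promoter alignments used Biopython 1.88.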

Additional observations from a re-analysis of the deposited data

Results flagged for a closer look

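Samples that stood apart within a group of 4 or 5 mice by Dixon's test were seen in 11 of 65 groups tested. Chance gives about 1 in 20, but that rate does not hold for 9 of the 11, in which all other mice were at 0 and any single value above 0 stands apart. In clumps these were Btnl2 at the tip of mouse 1 (259.2 CPM, against 63.2 to 118 in the others) and Ccl20 at the tip of mouse 3 (3.676, the 3 UMIs of that zone). In single mid-villus enterocytes it was Btnl2 of mouse 1 (103.0). The other 8 were single values above 0, each of 1 or 2 UMIs. They were Btnl1 (19.52), Btnl2 (19.52) and Btnl4 (9.758) in goblet-like cells of mouse 1, Ccl20 (9.979) in goblet-like cells of mouse 3, and Btnl4 (2.267), Ccl25 (4.534), Cx3cl1 (2.267) and Cxcl16 (4.534) in enteroendocrine-like cells of mouse 2, the mouse with 216 of the 240 such cells.

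Clumps of mouse 6, labelled above 2n, were outside the main comparisons, and members were detected there above the limit of 3 UMIs. In the crypt, mid-villus and tip of that mouse, Btnl1 stood at 47.99, 94.35 and 28.1 CPM, Btnl2 at 27.79, 62.9 and 63.22, Ccl25 at 688.3, 978.9 and 63.22, and Cx3cl1 at 45.47, 62.9 and 35.12. Il15 was 5.052 in the crypt and 42.15 at the tip, and Cxcl16 was 55.04 at the mid-villus and 56.2 at the tip. The 420 unnamed cells, led by hemoglobin and immunoglobulin genes and holding the macrophage markers C1qa, C1qb and Csf1r among their leading genes, held Cxcl16 at 84.68 (80 UMIs) and Ccl25 at 25.4 (24 UMIs).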

How the results depend on the processing

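Member differences kept their direction and their side of the threshold in 526 of 565 values over 21 alternatives, lost their call in 17, gained one in 15 and changed sign in 7. The sign changes of Btnl1 and Cx3cl1 concern differences near 0, and that of Btnl2 a difference of 0.36 (SE 0.311). Btnl1 between tip and mid-villus clumps became 0.011 with clumps over 1000 UMIs and 0.049 without clumps with a lymphocyte UMI, and ranged from -0.235 to 0.18 with 1 mouse left out (positive without mouse 3 or 4). Cx3cl1 there ranged from -0.419 to 0.027 (positive without mouse 4) and in single enterocytes from -0.365 to 0.044 (positive without mouse 3), and Btnl2 in single enterocytes became -0.138 without TMM factors. Counts of called genes moved as follows. Pairs alone gave 1523 genes (mid-villus against crypt, 3003 in the main test), 561 (tip against mid-villus, 919) and 2451 (tip against crypt, 3954). The tip sum of mouse 4 then held 6 pairs and 5016 UMIs. In pairing the sums by mouse, the mouse as a replicate block raised tip against mid-villus to 2050 and changed the member calls given beside each result and no other member call. No filter on low counts gave 6097, 1570, 2120 and 3111 genes in lymphocyte-like, goblet-like, tuft-like and enteroendocrine-like cells (2637, 994, 1142 and 1406 in the main test), and leaving out the onlyEpcam plates gave 1178, 537, 663 and 811. Leaving out each mouse in turn gave 1755 to 3260, 358 to 1036 and 2553 to 4146 in the 3 zone comparisons (lowest without mouse 3, 1 and 3), 1284 to 3777, 384 to 1138, 329 to 1408 and 449 to 1923 in these 4 types (lowest without mouse 2) and 362 to 1396 in single enterocytes (1155, lowest without mouse 2). DESeq2 size factors moved the median of all genes by -0.26 between mid-villus and crypt and turned 1237 higher and 1766 lower genes into 843 and 2207, and between tip and crypt 1687 and 2267 into 1287 and 2734. Dropping TMM factors, mitochondrial UMIs or the plates labelled 4 months was added after seeing the data. Dropping TMM factors turned higher and lower calls from 1281 and 1356 into 2473 and 694 in lymphocyte-like cells, from 319 and 675 into 527 and 322 in goblet-like, from 464 and 678 into 1224 and 325 in tuft-like and from 535 and 871 into 1407 and 294 in enteroendocrine-like cells, from 448 and 471 into 270 and 678 between tip and mid-villus, from 1687 and 2267 into 1119 and 2722 between tip and crypt and from 562 and 593 into 159 and 912 in single enterocytes, and the cause of the lost calls was not tested. The lymphocyte clump comparison could not be fitted at 3 UMIs or between 1000 and 5000 UMIs. Il15 passed the filter on low counts in clumps neither in pairs nor without mouse 1, 2 or 3, and in the cell types Btnl1, Btnl2 and Cxcl16 without mouse 2, and Cxcl16 in single enterocytes without mouse 1, did not pass it, so these have no value. Btnl4, Btnl6 and Ccl20 passed the filter in no main comparison.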
